A study of Mus musculus with 10 samples.

Results

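Prox1, Zbtb20, Nfia, Nfib, Nfix, Meis1 and Meis2 are transcription factor genes of the hippocampal primordium and the developing dentate gyrus (DG). They were chosen by name and not by their measured values, but with earlier results of these data known. All 7 were found among the 52227 genes of the count table and among the 21664 genes with enough counts to be tested. The cortical hem (CH), the signaling center next to the hippocampal primordium, was isolated by laser capture microdissection from 5 wild-type (WT) and 5 Lmx1a-/- mouse embryos at e13.5, and mRNA-seq libraries were made, each from the pooled sections of 1 embryo. The question was whether hippocampal fate genes rise in the CH when Lmx1a, a transcription factor of the CH, is inactive. The mutants are homozygous for the dreher-J allele, a point mutation that leaves an inactive but still immunodetectable Lmx1a protein, so the CH boundaries could be set on alternate Lmx1a-stained sections in both genotypes. The mice were of mixed background (C57Bl6, FVB and CD1), both sexes were used, and neither genotype received any treatment.

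Prox1 specifies dentate granule neuron identity, and Zbtb20 is a zinc finger repressor needed for hippocampal neuron identity. The nuclear factor I genes encode a family of DNA-binding proteins that bind as dimers and act in the ventricular zone, where they promote the switch of progenitors from neurogenesis to gliogenesis and are needed for a normal DG. The Meis genes encode homeodomain proteins of the TALE class, which bind DNA together with Pbx partners. In the embryonic forebrain the medial pallium holds, from the midline outward, the choroid plexus, the CH and the hippocampal primordium, so that a dissected CH borders on tissue rich in several of these factors.

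Depth ranged from 19145952 to 36462780 counts per library. The edgeR quasi-likelihood test with a false discovery rate (FDR) under 0.1 called 373 genes higher and 497 lower in Lmx1a-/- embryos, which is 1.72% and 2.29% of the genes tested. Of the 21664 genes tested, 3545 had an unadjusted p under 0.05 by that test. Lmx1a itself was at 71.2 ± 18.2 (SD, n = 5) normalized CPM (read counts scaled to the effective library size) in WT and 114 ± 21 in Lmx1a-/- libraries (edgeR FDR = 0.0658), and since the mutant transcript is still made, this level does not check the labels. The Y-linked transcript Ddx3y was at 65.6 CPM in WT embryo 1, at most 0.0588 CPM in the other 4 WT embryos and 72.5 to 84.3 CPM in all 5 Lmx1a-/- embryos. Xist, made from the inactive X chromosome, had the opposite pattern, at 4400 to 5170 CPM in WT embryos 2 to 5 and at most 1.15 CPM in the remaining 6. Sex and genotype therefore overlap almost completely, and only WT embryo 1 allows a comparison among embryos with Y-linked RNA. Of 10 CH genes, each detected in every library, 1 was higher in mutants, Lmx1a itself, and 4 were lower, Wnt2b, Wnt5a, Lmo2 and Slc17a8. The summed level of the 10 was 2220 to 4210 CPM in WT and 2630 to 3720 CPM in Lmx1a-/- libraries. The study had already reported Wnt2b, Lmo2 and Slc17a8 as lower in these same embryos, so their calls are no independent evidence. Of other cell types, Cajal-Retzius cell genes were called in 1 (higher) and 3 (lower) of 7 cases. Those called, Lhx5 (higher), Reln, Trp73 and Lhx1, had likewise been reported by the study from these embryos. Ganglionic eminence genes were called in 1 and 1 of 10 cases. By edgeR's quasi-likelihood test 0 of 12 neuron, 0 of 7 endothelium, 0 of 8 red blood cell and 0 of 7 microglia genes were called, with 3, 1, 5 and 0 of them at an unadjusted p under 0.05.

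None of the 7 factors passed the test in either direction, and the WT and Lmx1a-/- values of each overlapped. Across all genes, 4.44% had no overlap between genotypes. By edgeR's quasi-likelihood test 0 of 7 had an unadjusted p under 0.05, by DESeq2 also 0, and by edgeR's likelihood ratio and exact tests 1, Meis1. Over all 21664 genes tested, 3545 did so by the quasi-likelihood test. The means of Prox1, Zbtb20, Nfia and Nfib were higher in Lmx1a-/- libraries, and those of Nfix, Meis1 and Meis2 were lower. The median log2 fold change (Lmx1a-/- over WT, as throughout) was 0.1 over the 7 factors and −0.005 over all genes tested. In bulk tissue, fewer cells that express a gene and less RNA per cell cannot be told apart.

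**Figure D1:**
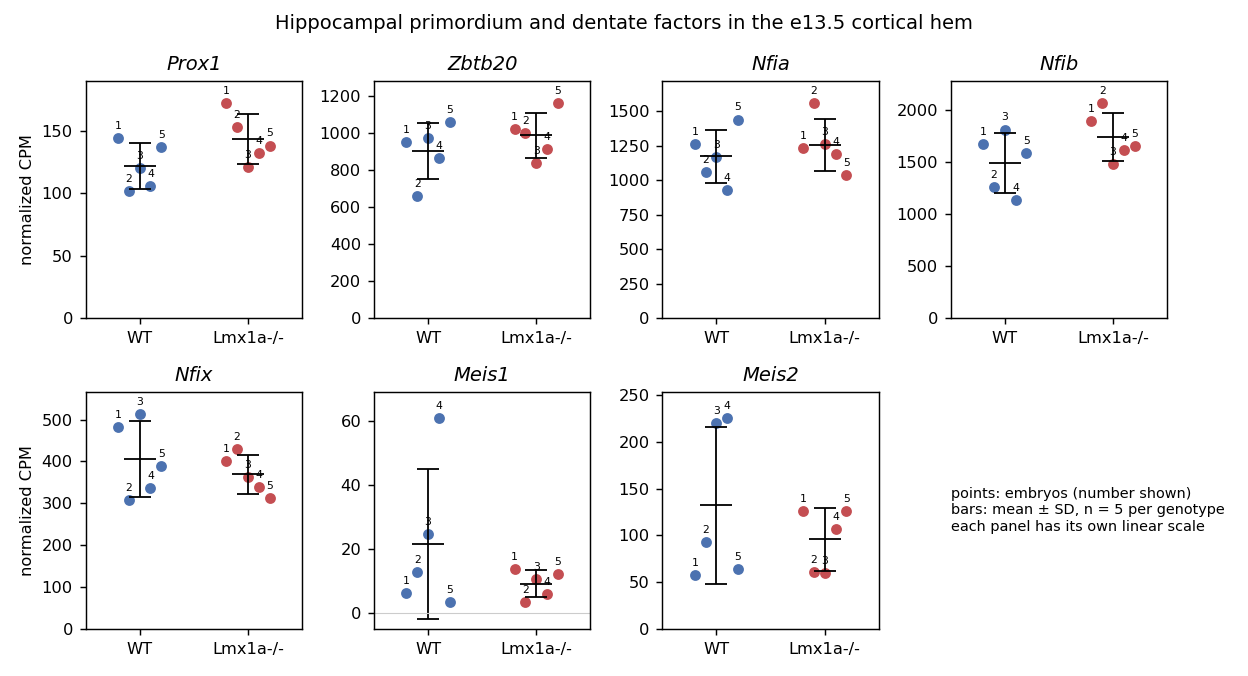
Normalized CPM (linear axes from 0, a scale for each gene) of the 7 factors in 5 WT and 5 Lmx1a-/- embryos, numbered as in the labels, with mean ± SD. The genotypes overlap in every panel, and in the Meis1 and Meis2 panels the WT spread is set by WT embryos 3 and 4.

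Per length, the nuclear factor I genes were the most abundant of the 7. In WT libraries Nfia was at 108 ± 17.8 CPM per kb of exon and Nfib at 99.6 ± 19.3 (SD, n = 5), and their ranges overlapped, with Nfia above Nfib in 4 of 5 embryos. Nfix followed at 55.2 ± 12.2 CPM per kb, then Zbtb20 at 29.3 ± 4.91 and Prox1 at 14.5 ± 2.2. The WT ranges of Nfib and Nfix, of Nfix and Zbtb20, and of Zbtb20 and Prox1 did not overlap. Meis2 was at 11 ± 6.98 CPM per kb, a range that overlapped those of Prox1 and of Meis1, which was lowest at 2.05 ± 2.22. In Lmx1a-/- libraries the order of the means changed only for Nfia and Nfib, with Nfib at 116 ± 15.6 and Nfia at 115 ± 17.4 CPM per kb.

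Prox1 (ENSMUSG00000010175) lies on the minus strand of chromosome 1, from 190118035 to 190170714 in GRCm38, 22.3 Mb from Lmx1a. Its levels in WT embryos 1 to 5 were 144, 102, 120, 106 and 137 normalized CPM. Across mutant embryos 1 to 5 the values were 172, 153, 121, 132 and 138 CPM. The lowest mutant value lay just above the middle of the WT values, and 2 mutant embryos exceeded every WT embryo. The means were 122 ± 18.4 and 143 ± 20 CPM (SD, n = 5 each), a 1.18-fold ratio with a 95% interval of 0.99 to 1.4 (log2 fold change 0.24 ± 0.12 SE, edgeR FDR = 0.336). WT embryo 1, the WT embryo with Y-linked RNA, had the highest WT value, 144 CPM against a Lmx1a-/- mean of 143. With the log2 level of Xist as a covariate the log2 fold change was −0.02 ± 0.19 (SE). Xist nearly coincides with genotype in these embryos, so that fit cannot tell sex and genotype apart.

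Zbtb20 (ENSMUSG00000022708; chromosome 16, plus strand, 42875881 to 43642602) was at 949, 661, 971, 863 and 1060 CPM in WT embryos 1 to 5. The values in mutant embryos 1 to 5 were 1020, 1000, 840, 913 and 1160 CPM. WT embryo 2 was the one low value, and the other 9 libraries lay between 840 and 1160 CPM. The means were 900 ± 151 and 988 ± 121 CPM (SD, n = 5 each), with a log2 fold change of 0.13 ± 0.12 (SE) and an edgeR FDR of 0.626. Without WT embryo 2 the log2 fold change was 0.03. The 95% interval of the fold was 0.919 to 1.31, at 14653 Zbtb20 counts or more in each library.

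In the nuclear factor I family no single gene passed the test, while 3 of the 6 ratios between its members, chosen after the levels had been seen, differed in these embryos, and 2 of the 3 are ratios to Nfic. Nfia and Nfib lie on the same chromosome. Nfia (ENSMUSG00000028565; chromosome 4, plus strand, 97772734 to 98118874) was at 1260, 1060, 1170, 930 and 1440 CPM in WT embryos 1 to 5. In Lmx1a-/- embryos 1 to 5 it was at 1230, 1560, 1260, 1190 and 1040 CPM. Both genotypes spread over about the same range, and the means of 1170 ± 194 and 1260 ± 189 CPM (SD, n = 5 each) gave a log2 fold change of 0.10 ± 0.12 (SE, edgeR FDR = 0.737). Without Lmx1a-/- embryo 2, the highest, it was 0.01.

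Nfib (ENSMUSG00000008575; chromosome 4, minus strand, 82290173 to 82705750) was at 1670, 1260, 1810, 1130 and 1580 CPM in WT embryos 1 to 5. Across mutant embryos 1 to 5 the values were 1890, 2060, 1480, 1610 and 1650 CPM. WT embryos 2 and 4 were below every mutant embryo, and the other 3 WT embryos were within the mutant range. The means were 1490 ± 289 and 1740 ± 234 CPM (SD, n = 5 each), with a log2 fold change of 0.22 ± 0.13 (SE), a 95% interval of the fold of 0.961 to 1.41 and an edgeR FDR of 0.428. Choroid plexus genes moved against Nfib across libraries. The mean log2 level of 10 choroid plexus genes had a correlation of −0.74 with Nfib over the 10 libraries after centring within genotype. Of those 10 genes 2 were lower and 0 higher in Lmx1a-/- libraries, 9 had a lower mean, 7 had an unadjusted p under 0.05, and their median log2 fold change was −1.09. Their summed level was 140 to 491 CPM in WT and 157 to 237 CPM in Lmx1a-/- libraries, with Ttr, the transthyretin gene, at a mean of 78.3 CPM in WT and 7.23 CPM in mutants and above 0 in every library. With that mean as a covariate the log2 fold change of Nfib was −0.2 ± 0.17 (SE) and with Xist 0.02, and the part of choroid plexus cells in the Nfib values was not tested.

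Nfix (ENSMUSG00000001911; chromosome 8, minus strand, 84699876 to 84800344) was at 481, 307, 514, 336 and 389 CPM in WT embryos 1 to 5. The values in mutant embryos 1 to 5 were 402, 430, 362, 338 and 312 CPM. It was the one family member of the 3 with a lower mean in mutants, 369 ± 47.7 against 405 ± 89.9 CPM (SD, n = 5 each; log2 fold change −0.14 ± 0.14 SE, edgeR FDR = 0.677). WT embryos 1 and 3 were above every mutant, and WT embryo 2 was below every mutant. Without WT embryo 3 the log2 fold change was −0.04, and without WT embryo 2 it was −0.23. With the choroid plexus covariate it was −0.55 ± 0.18 (SE), with an unadjusted p of 0.00783 by edgeR's quasi-likelihood test and an FDR of 0.481. The mean log2 level of the choroid plexus genes, centred within genotype, had a correlation of −0.71 with Nfix, near that with Nfib. The part of choroid plexus cells in the Nfix values was not tested.

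The fourth family gene, Nfic, was at 119, 83.7, 97.1, 85.7 and 109 CPM in WT embryos 1 to 5. In Lmx1a-/- embryos 1 to 5 it was at 81.9, 88.7, 73.6, 64.7 and 61.6 CPM. Its log2 fold change was −0.42 ± 0.12 (SE), and at an edgeR FDR of 0.108 it just missed the threshold. It passed when WT embryo 4 (FDR = 0.0992) or Lmx1a-/- embryo 2 (FDR = 0.0892) was left out. It also passed by DESeq2 (FDR = 0.0362), the likelihood ratio test (0.0594), the exact test (0.0617), robust dispersions (0.0908) and a newer quasi-likelihood method (0.0876). In 19 of the 26 alternative settings it did not pass, among them the replicate block (0.152) and the Xist covariate (0.237).

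Because a ratio of counts within 1 library does not depend on how libraries are scaled, the 4 family genes were also compared with each other inside each embryo. Since Nfic had already been seen to be lower in mutants, the p-values of the ratios describe these embryos and are no independent evidence. In WT embryos 1 to 5 there were 10.6, 12.6, 12, 10.9 and 13.2 Nfia counts for each Nfic count. Across mutant embryos 1 to 5 the values were 15, 17.5, 17.2, 18.4 and 16.8. Every mutant embryo was above every WT embryo. The means were 11.9 ± 1.13 and 17 ± 1.23 (SD, n = 5 each), a 1.43-fold difference with a two-sided exact permutation p of 0.00794, the smallest that 5 against 5 embryos can give, and an adjusted p of 0.0278 over the 7 ratios compared, for which an adjusted p under 0.05 was taken as the threshold.

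Nfib and Nfic gave the same direction. The ratio of Nfib to Nfic counts was 14.1, 15, 18.7, 13.1 and 14.5 in WT embryos 1 to 5. It was 23.1, 23.2, 20.1, 24.8 and 26.9 in Lmx1a-/- embryos 1 to 5, again with no overlap. The 1.57-fold difference between 15.1 ± 2.12 and 23.6 ± 2.5 had an exact permutation p of 0.00794 (adjusted p = 0.0278). When Lmx1a-/- embryo 5 was left out, the adjusted p of both ratios to Nfic was 0.0556, with log2 differences of 0.52 for Nfia and 0.60 for Nfib against 0.52 and 0.65 with all embryos.

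The ratio of Nfib to Nfix counts, which involves 2 of the 7 factors alone, was 3.48, 4.1, 3.52, 3.35 and 4.07 in WT embryos 1 to 5. The values in mutant embryos 1 to 5 were 4.69, 4.79, 4.09, 4.75 and 5.3. Lmx1a-/- embryo 3 fell just below WT embryo 2, and the other 4 WT embryos were below every mutant. The difference was 1.28-fold (exact permutation p = 0.0159, adjusted p = 0.0371), and the adjusted p was 0.0555 without WT embryo 1, 4 or 5 and 0.0833 without Lmx1a-/- embryo 5. The ratio of Nfix to Nfic was 1.23-fold higher in mutants (exact permutation p = 0.0476), above the threshold at an adjusted p of 0.0833 and below it, at 0.0185, without WT embryo 3. The ratios of Nfia to Nfix (exact permutation p = 0.151) and of Nfia to Nfib (exact permutation p = 0.31) did not pass. A ratio shows unequal change of its members and not which of them changed. WT embryo 1, which like the mutants had Y-linked RNA, was below all 5 mutants in the ratios of Nfia to Nfic, Nfib to Nfic and Nfib to Nfix, but it is 1 embryo, and the part of sex in the ratios was not tested.

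**Figure D2:**
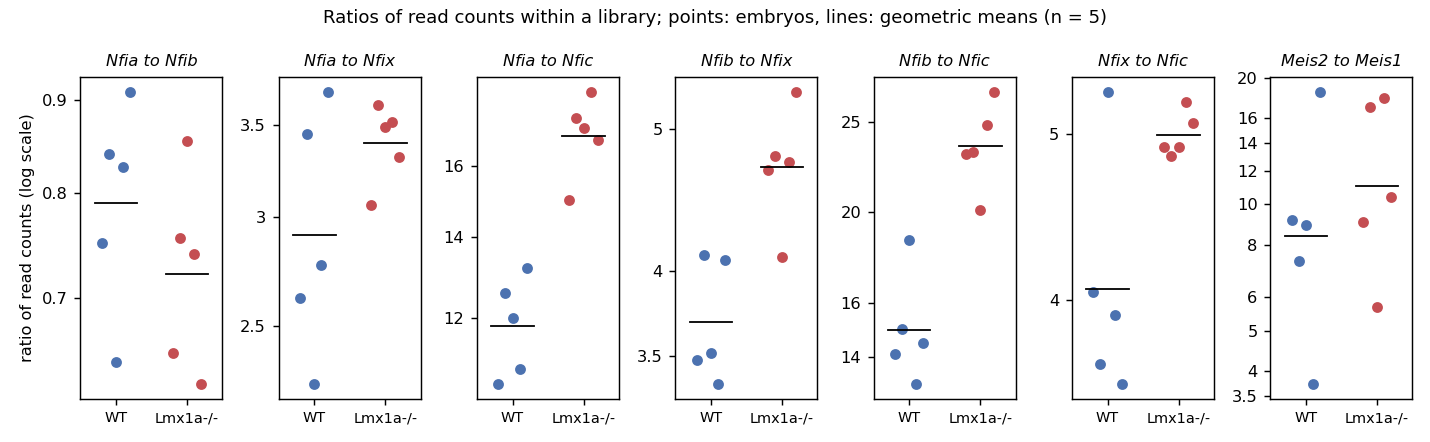
Ratio of read counts of 2 genes within a library (log axes) in 5 WT and 5 Lmx1a-/- embryos, with lines at the geometric means. Nfia to Nfic and Nfib to Nfic do not overlap between genotypes, and Nfib to Nfix overlaps at 1 mutant embryo, 4.09 against a highest WT value of 4.1.

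Meis1 and Meis2 varied more between embryos of 1 genotype than any other of the 7, with WT coefficients of variation of 108% and 63.5% against at most 22.2%. Meis1 (ENSMUSG00000020160; chromosome 11, minus strand, 18879817 to 19018985) was at 6.31, 12.7, 24.7, 60.8 and 3.47 CPM in WT embryos 1 to 5. In Lmx1a-/- embryos 1 to 5 it was at 13.9, 3.59, 10.5, 5.98 and 12.1 CPM. WT embryos 3 and 4 were above every mutant, while WT embryo 5 was the lowest of all 10. The highest WT value was 17.5 times the lowest, against 3.87 times in mutants. The means were 21.6 ± 23.4 and 9.2 ± 4.29 CPM (SD, n = 5 each), and the log2 fold change was −1.22 ± 0.62 (SE) with an edgeR FDR of 0.355. Without WT embryo 4 it was −0.36.

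Meis2 (ENSMUSG00000027210; chromosome 2, minus strand, 115863064 to 116065839) was at 57.8, 93, 220, 226 and 64.2 CPM in WT embryos 1 to 5. Across mutant embryos 1 to 5 the values were 126, 60.8, 59.4, 107 and 126 CPM. The same WT embryos, 3 and 4, were again above every mutant, and the other 3 WT embryos were at or below 93 CPM. The means were 132 ± 84 and 95.9 ± 33.5 CPM (SD, n = 5 each), with a log2 fold change of −0.46 ± 0.38 (SE), a 95% interval of the fold of 0.411 to 1.28 and an edgeR FDR of 0.595. Without WT embryo 4 it was −0.19. With Xist as a covariate both genes changed direction, to 0.64 ± 1.05 for Meis1 and 0.77 ± 0.63 for Meis2 (log2 fold change, SE). WT embryo 1 was at 6.31 CPM of Meis1 and 57.8 CPM of Meis2, within or below the ranges of the mutants. The ratio of Meis2 to Meis1 counts was 9.53 ± 5.47 in WT and 12 ± 5.26 in mutants (SD, n = 5 each; exact permutation p = 0.452).

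**Figure D3:**
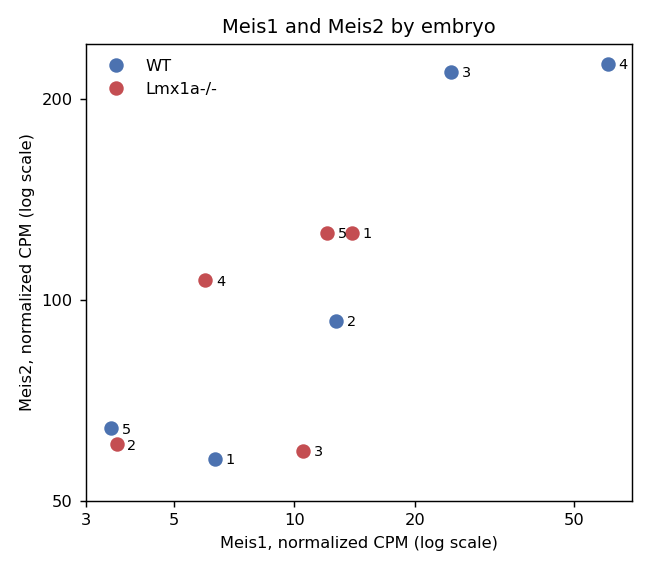
Meis2 against Meis1 in each embryo, in normalized CPM on log axes, with embryo numbers beside the points. WT embryos 3 and 4 lie apart at 220 and 226 CPM of Meis2, and the other 8 embryos of both genotypes lie between 57.8 and 126 CPM.

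Markers of tissue next to the CH were read in the embryos where the Meis genes were high. Of 8 mesenchyme and meninges genes 0 were higher and 3 lower in Lmx1a-/- libraries (Pdgfra, Lum and Dcn), none was at 0 in any library, and their summed level was 333 to 929 CPM in WT and 250 to 516 CPM in Lmx1a-/- libraries. WT embryo 3 had the highest sum of all, 929 CPM, and WT embryo 4 the next, 650 CPM. The 8 genes did not move as one in WT embryo 4, which had the highest level of all 10 embryos for Twist1 (57.8 CPM, against at most 21.1), Lum and Dcn, the lowest for Foxc1 (4.57 CPM) and the lowest of the WT for Pdgfra (38 CPM). Of 7 diencephalic genes 0 were called in either direction by edgeR's quasi-likelihood test and 0 had an unadjusted p under 0.05, with sums of 38.4 to 122 CPM in WT and 54.2 to 96.6 CPM in mutants. Gbx2, at a mean of at most 0.36 CPM in either genotype, was at 0 in WT embryos 1, 3 and 4 and in Lmx1a-/- embryo 5. Irx2 (4.35 CPM) and Irx3 (5.03 CPM) were highest of all 10 in WT embryo 3, and no other diencephalic gene was highest in WT embryo 3 or 4. The diencephalic sum was 62 CPM in WT embryo 3 and 72.1 CPM in WT embryo 4, against 122 CPM in WT embryo 2. Centred within genotype, the mean log2 level of the diencephalic list had a correlation of −0.04 with Meis1 and −0.14 with Meis2. For the mesenchyme and meninges list the correlations were 0.59 with Meis1 and 0.38 with Meis2. For the CH genes they were −0.58 and −0.68. The part of these tissues in the Meis values was not tested.

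**Figure D4:**
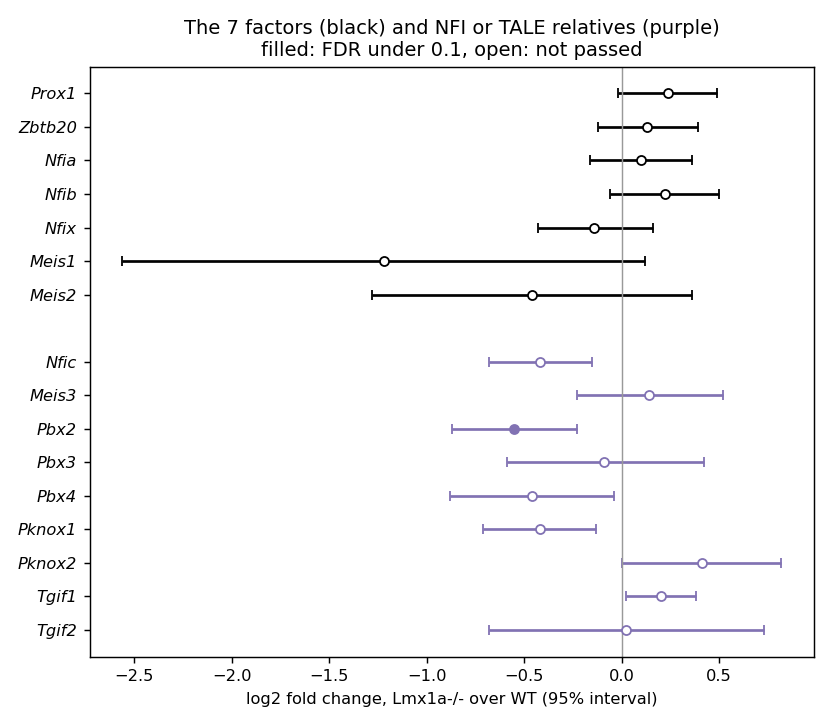
Log2 fold change (Lmx1a-/- over WT) with 95% intervals from the edgeR fit, for the 7 factors in black and their nuclear factor I and TALE relatives in purple, with filled points for FDR under 0.1. All 7 black intervals span 0, and of the relatives shown Pbx2 (−0.55) passes.

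Of 9 relatives reported here, Nfic and 8 TALE genes, 0 rose and 1 fell by edgeR's quasi-likelihood test, with a median log2 fold change of −0.09. An unadjusted p under 0.05 was seen for 5 of them, against 3545 of all 21664 genes tested. Pbx2, which encodes a partner of the Meis proteins, fell from 25.6 ± 4.47 to 17.5 ± 2.84 CPM (SD, n = 5 each; log2 fold change −0.55 ± 0.15 SE, edgeR FDR = 0.0806), and it passed in 2 of the 10 fits that left out 1 library, those without WT embryo 5 or Lmx1a-/- embryo 1.

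The other TALE relatives reported did not pass. Pbx4 was lower in every mutant embryo, 2.85 to 4.35 CPM against 4.42 to 5.24 CPM, with a log2 fold change of −0.46 and an edgeR FDR of 0.252. The log2 fold changes were −0.42 for Pknox1 (edgeR FDR = 0.133, and 0.0524 without Lmx1a-/- embryo 3), 0.41 for Pknox2 (edgeR FDR = 0.307) and 0.2 for Tgif1 (edgeR FDR = 0.249). Meis3 was at 12 ± 1.65 CPM in WT and 13.3 ± 2.99 in mutants, without the wide spread of Meis1 and Meis2. Pbx3 (−0.09) and Tgif2 (0.02) differed by less than 0.1 on the log2 scale.

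Other genes of the hippocampal field and the dentate lineage, a list chosen with earlier results of these data known, gave a reference for the 7 factors. Of 27 such genes 6 were higher in Lmx1a-/- libraries and 0 lower, or 22.2% against 1.72% of all genes. The median log2 fold change of the 27 was 0.12, with 18 higher and 9 lower means in mutants. By edgeR's quasi-likelihood test 12 had an unadjusted p under 0.05, against 3545 of all 21664 genes tested. Among those 12, the lower ones were Eomes (log2 fold change −0.51, edgeR FDR = 0.129), Etv1 (−0.98, edgeR FDR = 0.167) and Dmrta2 (−0.27, edgeR FDR = 0.21). The study had reported Eomes, under the name Tbr2, as lower in these same embryos. Emx2, a patterning gene of the medial pallium, rose from 108 ± 23.1 to 169 ± 20.2 CPM (SD, n = 5 each; log2 fold change 0.65, edgeR FDR = 0.0356). Nr2f2, which encodes the receptor COUP-TFII, rose from 52.8 ± 12.9 to 102 ± 24.7 CPM (0.95, edgeR FDR = 0.0202). Fzd9, a Wnt receptor gene of the hippocampal primordium, rose from 27.1 ± 5 to 43.3 ± 7.15 CPM (0.67, edgeR FDR = 0.0314), and Hopx, a homeodomain-only gene of dentate progenitors, from 11.4 ± 3.26 to 26.2 ± 8.79 CPM (1.19, edgeR FDR = 0.0308). The remaining genes called were Dmrt3 (0.48) and Calb1 (1.64), named here after their values were seen, with Calb1 at a mean of 1.41 CPM or less. Calb1 (edgeR FDR = 0.0934) passed in 1 of the 10 fits that left out 1 library, that without Lmx1a-/- embryo 3, with an FDR of up to 0.195 in the others, and Dmrt3 missed the threshold without Lmx1a-/- embryo 4 (FDR = 0.116). Lhx2, whose protein the study reported to be reduced by added Lmx1a, was not called. It was at 272 ± 80.8 CPM in WT and 366 ± 83.1 CPM in mutants (SD, n = 5 each; log2 fold change 0.43, edgeR FDR = 0.3).

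With the Xist covariate 0 of the 27 genes were called higher by edgeR's quasi-likelihood test, and with the choroid plexus covariate 1 was, Nr2f2, while the number called higher over all genes fell to 6 and 16. The log2 fold changes kept their direction and their SEs grew, for Emx2 from 0.65 ± 0.14 to 0.51 ± 0.27 with Xist and 0.55 ± 0.25 with the choroid plexus covariate, and for Hopx from 1.19 ± 0.26 to 0.96 ± 0.50 and 0.89 ± 0.49. That of Nr2f2 was 0.68 ± 0.34 and 1.57 ± 0.28. Of 8 cortical neuroepithelium genes 2 rose (Fezf2 and Nr2e1) and 0 fell, and the summed level of the 8 was 327 to 812 CPM in WT and 634 to 951 CPM in Lmx1a-/- libraries, with none at 0 in any library. Nfib had a correlation of 0.82 with the mean log2 level of these 8 genes over the 10 libraries, centred within genotype. The part of cortical neuroepithelium in these values was not tested.

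The 95% intervals of the log2 fold change reached up to 0.49 for Prox1, 0.39 for Zbtb20, 0.36 for Nfia and 0.50 for Nfib. Those of the genes called began at 0.24 for Dmrt3, 0.34 for Emx2 and 0.36 for Fzd9, within these intervals. They began at 0.55 for Nr2f2, 0.63 for Calb1 and 0.64 for Hopx. Emx2, Fzd9, Nr2f2 and Hopx were named for having the smallest p of their list. The difference between these genes and the 7 factors was not itself tested.

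Nuclear factor I proteins are known to switch on glial genes. Of 17 genes associated with that activity 16 were tested. By edgeR's quasi-likelihood test 0 were called in either direction and 5 had an unadjusted p under 0.05, against 3545 of all 21664 genes tested. The median log2 fold change of the glial genes was −0.12. By edgeR's exact test, by its likelihood ratio test and by DESeq2, 2 were higher. The smallest p belonged to Fabp7, a radial glia gene, at 724 ± 87.3 and 921 ± 123 CPM (SD, n = 5 each; log2 fold change 0.35, edgeR FDR = 0.113), then to Id4 (0.93, edgeR FDR = 0.118) and Sox9 (0.29, edgeR FDR = 0.17), all with a higher mean in mutants, and Tnc (−0.84, edgeR FDR = 0.256). Gfap, the astrocyte filament gene, had at most 20 counts in any library and was not tested.

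Several of the 7 factors varied together among embryos of the same genotype. After centring within genotype, the correlation of log2 CPM over the 10 libraries, in which each pair of genes is read from the same dissections and depths, was 0.86 for Nfib and Nfix, 0.78 for Prox1 and Nfib, 0.7 for Nfia and Nfib, and 0.84 for Meis1 and Meis2. Nfia varied against the Meis genes, at −0.83 with Meis1 and −0.7 with Meis2. Zbtb20 was nearest to Prox1 (0.68) and close to 0 with Meis2 (0.1). The mean of the hippocampal field and dentate genes had a correlation of 0.93 with Nfib, 0.75 with Nfix, 0.57 with Prox1 and −0.33 with Meis1. Other lists were as high for some factors, with correlations of the endothelium mean of 0.76 with Nfib, 0.75 with Nfix and 0.58 with Prox1, and of the red blood cell mean of 0.63 with Prox1.

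Among 9268 genes with a mean of at least 10 CPM, those most like Meis1 in this measure were Tns1 (0.969), which encodes the adhesion protein tensin, Runx1 (0.955), a transcription factor of blood cell progenitors, and Anxa2 (0.928), an annexin. For Meis2 they were Sema5a, a guidance molecule gene (0.963), Rhobtb3 (0.954) and Ptpru (0.934). For Nfib the nearest were Plcxd2 and the proteasome genes Psma1 and Psmd6, at 0.957 or above. For Nfix they were Ubl4a, 9630028B13Rik and Zbtb18, and for Nfia Srgap3, Rnf130 and Papola. Prox1 was nearest to Dazap2, Terf2 and Snap47, at 0.918 to 0.922. Zbtb20 was nearest to Slc44a5 (0.966), Brox and Abhd17b, and Slc44a5 was the one of these 21 genes that differed between genotypes (log2 fold change −0.66, edgeR FDR = 0.0238).

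Genes on the opposite strand of these loci add an uncertainty where the strand setting of the counting is not given in the sources used here. Gm11266, antisense to Nfib without exon overlap, was at 33 CPM in WT and 50.5 CPM in mutants (log2 fold change 0.61, edgeR FDR = 0.108), and E130114P18Rik, which shares 4 exon bases with Nfia, at 64.9 and 81.1 CPM (edgeR FDR = 0.323). Prox1os shares 133 bases, 1.59% of the Prox1 exons, and was at 0.326 and 0.769 CPM. Gm9968 shares 104 bases with Zbtb20 (19.8 and 26.3 CPM), and the other antisense genes of Zbtb20 share no exon bases. Meis1 has the largest shared length, 8.51% of its exons with Gm16140 on the opposite strand and 9.77% with Gm37818 on the same strand, and both were under 1 CPM in each genotype. Lyl1 and G430095P16Rik, opposite Nfix, share at most 1.86% of its exons.

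**Figure D5:**
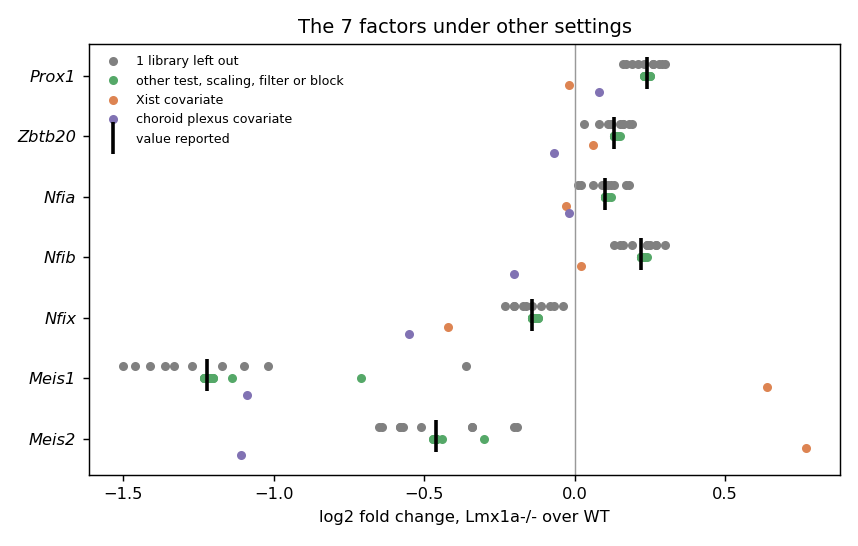
Log2 fold change (Lmx1a-/- over WT) of the 7 factors as reported (black bars) and under the 26 alternative settings, colored by kind. Leaving out 1 library keeps each direction, while the Xist or choroid plexus covariate reverses Prox1, Zbtb20, Nfia, Nfib, Meis1 and Meis2 in 1 or both cases.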

How the data were processed

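Laser-captured CH from 10 e13.5 embryos was sequenced. Reads were trimmed by the authors (Trimmomatic), mapped to GRCm38 with STAR 2.7.1a and assigned to Ensembl genes with HTSeq 0.11.2, and the deposited values are raw counts without normalization. Of 52508 lines, 281 exact repeats were dropped. Genotypes come from the labels, and the study describes the WT embryos as littermates of the mutants without giving the litter of each, so p-values measure the spread between these embryos only.

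The test, edgeR 4.0.16 in R 4.3.3, covered genes that reached 10 counts in 3 or more libraries: TMM scaling, trended dispersion, quasi-likelihood test, no covariate, Benjamini-Hochberg FDR under 0.1 over all 21664 genes. Normalized CPM are TMM-scaled, from edgeR's cpm function. The SE is the log2 fold change divided by the square root of F. Exon lengths and positions, counted from 1, are from GENCODE M21 on the same build, since the annotation used for counting was not used here. Ratios within a library were compared on the log2 scale by two-sided exact permutation of genotypes over all 252 regroupings, with an adjusted p under 0.05 as the threshold. The scripts were tested on simulated counts.

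Embryos with the same number in both genotypes did not deviate together (correlations of −0.1 to 0.01), so numbers were not used as pairs. Alternatives were other scalings, filters and tests (DESeq2 1.42.0, edgeR's likelihood ratio and exact tests), covariates, a replicate block and leaving out each library. A newer quasi-likelihood method, leaving out mitochondrial genes and keeping repeated lines were added after seeing the data.

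The 7 genes and all gene lists were chosen with earlier results of these data known. Genes named are the 7, their nuclear factor I and TALE relatives (some genes that this rule names are left out), up to 4 genes with the smallest p of each other list, the 3 genes most like each of the 7, opposite-strand genes, and Xist, Ddx3y and Lmx1a. Some others, such as Eomes, Etv1, Dmrta2 and Lhx2, were named after their values were seen.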

Additional observations from a re-analysis of the deposited data

How the results depend on the processing

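The counts of the 7 factors called, 0 higher and 0 lower by edgeR's quasi-likelihood test, were 0 under all 26 alternatives. Reversed log2 fold changes were −0.02 (Prox1), −0.03 (Nfia), 0.64 (Meis1) and 0.77 (Meis2) with the Xist covariate, and −0.07 (Zbtb20), −0.02 (Nfia), −0.2 (Nfib) and 0.08 (Pbx3) with the choroid plexus covariate. The cause of these reversals was not tested. Xist nearly coincides with genotype, so that term cannot be told apart from genotype with 10 libraries. The choroid plexus term overlaps genotype in part. Of its 10 genes 9 had a lower mean in mutants, while their summed levels overlapped, at 140 to 491 CPM in WT and 157 to 237 CPM in Lmx1a-/- libraries. Leaving out 1 library gave −0.4 to 0.02 for Pbx3 and −0.28 to 0.22 for Tgif2, which was −0.03 with the replicate block.

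Genes called higher numbered 790 by DESeq2, 197 at an FDR under 0.05, 248 with the replicate block, 6 with Xist, 16 with the choroid plexus covariate, and 190 to 455 without 1 library (fewest without Lmx1a-/- embryo 4). Genes called lower numbered 976 by DESeq2, 805 by the likelihood ratio test, 772 by the exact test, 251 at an FDR under 0.05, 30 with Xist, 15 with the choroid plexus covariate, and 261 to 604 without 1 library. Of the 9 relatives 0 were higher under each alternative. The number lower was 3 by DESeq2, 2 by the likelihood ratio, exact and newer quasi-likelihood tests and with robust dispersions, 0 at an FDR under 0.05, with either covariate and with library size scaling, and 0 to 1 without 1 library. Of the glial genes 2 were higher by DESeq2, the likelihood ratio and exact tests, 1 with library size scaling, no filter, robust dispersions, the newer method and the replicate block, and 0 to 2 without 1 library. Of the hippocampal field genes 0 were higher with Xist, 1 with the choroid plexus covariate, and 4 to 7 without 1 library. The number lower was 1 by DESeq2, with the choroid plexus covariate and with the replicate block, 2 by the likelihood ratio and exact tests, and 0 to 1 without 1 library. The numbers pair no samples by source, and the replicate block called none of the 7 factors.

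Without 1 library the log2 difference of the ratio was 0.48 to 0.56 for Nfia to Nfic, 0.60 to 0.73 for Nfib to Nfic, 0.31 to 0.40 for Nfib to Nfix, which had an adjusted p under 0.05 in 6 of 10 cases, and 0.25 to 0.40 for Nfix to Nfic. These ratios do not depend on scaling. Counting error is small for all 7 factors except Meis1, with 66 to 1171 counts, so the spread between embryos limits the precision.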
